A study of Mus musculus with 6 samples.

Results

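The genes examined here encode the subunits of potassium, calcium, sodium and hyperpolarisation-activated (HCN) channels. They were chosen by gene symbol, as every named probe whose symbol starts with Kcn or Cacn, or with Scn or Hcn followed by a digit, and 1 inward rectifier gene that meets this wording was not analysed here. The choice gave 119 of the 18295 genes on the array, represented by 228 probes: 80 potassium, 25 calcium, 11 sodium and 3 HCN channel genes. Their expression was compared between Pitx3(gfp/-) neurons, called null here, and Pitx3(gfp/+) neurons, called heterozygous here. Both kinds of cell came from brains of mouse embryos at E14.5 and were sorted by flow cytometry for the green fluorescent protein that both genotypes carry at the Pitx3 locus. Pitx3 is a transcription factor of midbrain dopaminergic neurons. The null allele of the other chromosome is named only as AK in the labels. There was 1 null pool, and 3 heterozygous pools were each hybridised against it on 2 arrays with the dyes swapped, 6 arrays in all. Each heterozygous pool held several embryos, how many embryos made up the null pool is not given in the labels, and the RNA was amplified in 2 rounds before hybridisation.

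These channels set the electrical behaviour of a neuron. Voltage-gated sodium and calcium channels depolarise the membrane, potassium channels return it to rest or hold it there, and HCN channels carry a depolarising current that opens on hyperpolarisation. Adult midbrain dopaminergic neurons are known as pacemakers that fire without synaptic input, using calcium channels with Cacna1d, HCN channels, A-type potassium channels built of Kcnd3 and Kcnip3, and small-conductance calcium-activated channels with Kcnn3. Each pore subunit works with auxiliary subunits that change its trafficking and gating.

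Ratios are given as the log2 of null over heterozygous signal, averaged over the 2 arrays of a pool and then over the 3 pools, with the SD of the 3 pools. A signal counts as well above background where it exceeded the local background by more than 2 background SDs, which held for 47.6% to 71.4% of genes per array and RNA. A gene is called above background where its brightest probe met this on 3 or more of the 6 arrays, in one RNA or the other, and a gene's number of arrays above background is that of its brightest probe. Of 12 dopaminergic markers, 9 were above background, but the brightest probes of Th and En1 met the criterion on no array. Pitx3 itself met it on all 6 arrays in each RNA and read -0.08 ± 0.32, which does not check the labels, since both genotypes carry the GFP allele and the part of the gene that the probe covers is not known here. In sorted pools, fewer cells of a type and less RNA per cell cannot be told apart.

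Most channel genes showed no difference past the test, and the few calls went both ways. Of the 119 genes, 2 rose in the null pool, the calcium channel subunit gene Cacna2d2 and the potassium channel gene Kcna5, and 1 fell, the T-type calcium channel gene Cacna1g. The other 116 did not pass limma's moderated test with Benjamini-Hochberg adjustment over all genes at 0.05. The 3 calls are 2.52% of the channel genes, against 4.96% of all genes on the array, 3.09% higher and 1.87% lower in the null pool. At an unadjusted p under 0.05 there were 27 channel genes, 15 higher and 12 lower, which is 22.7% against 20.5% of all genes. The median ratio of the channel genes was -0.0031, beside -0.0027 for all genes, and the median size of a ratio was 0.038, beside 0.037. Neither share nor median set the channel genes apart from the array as a whole.

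Much of the list was dim. Of the 119 genes, 76 were above background (63.9%, against 67.2% of all genes), 43 were not, and the brightest probe of 24 of those met the criterion on no array. Background correction with an offset of 50 shrinks the ratios of dim probes toward 0, so a small ratio and a small SD of such a gene do not show an unchanged level. Dim genes above background are affected too. With plain background subtraction Hcn2 read 0.51 against 0.15, Kcna4 -0.87 against -0.42 and Kcnn2 -0.58 against -0.18. Kcnk13, a bright gene, read 0.65 against 0.63. Among the 76 genes above background, 33 had a ratio above 0 and 43 below. For 30 of them (39.5%) all 6 arrays had the sign of the mean, against 27.5% of all genes above background, and all arrays share the null pool. The levels of the null RNA and of the heterozygous pools, averaged over the 2 arrays of a pool, did not overlap for 27 of the 76 genes (35.5%), against 30.7% of all genes above background.

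**Figure D1:**
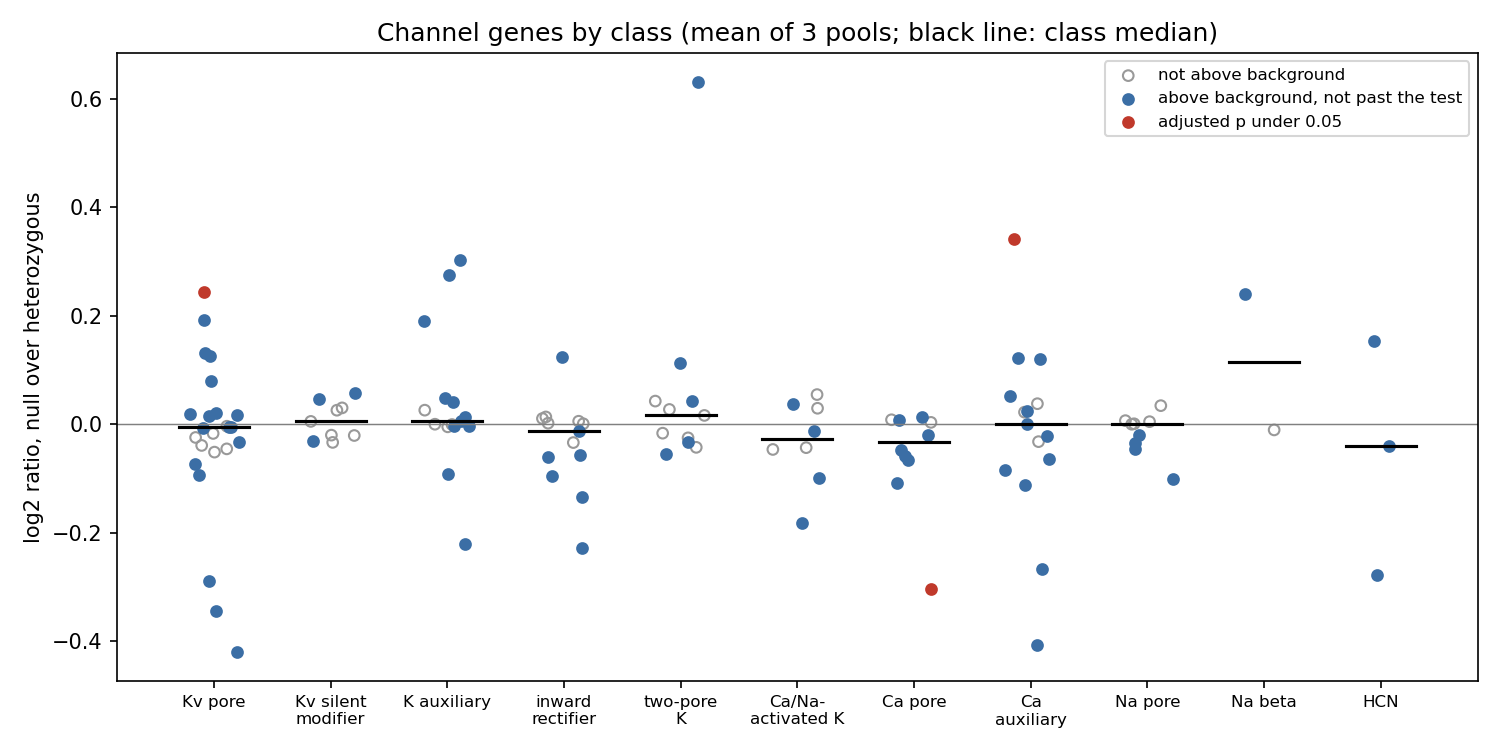
Mean log2 ratio (null over heterozygous, 3 pools) of each of the 119 channel genes, by class of subunit. Open points are genes not above background, red points the 3 genes past the test, and black lines the class medians over all measured members. Every class centres near 0, apart from the sodium channel beta class of 2 genes, and single genes run between -0.42 and 0.63.

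The promoters of the 2 genes that rose are shown as read from RefSeq (GRCm38.p6), 300 bases around the transcription start. They run 5′ to 3′ on the strand of the gene, with each CG step in capitals. Which transcripts the called probes read was not examined. No promoter was given for Cacna1g, the gene that fell, so it is not shown and was not searched. The promoter of Cacna2d2 lies at chr9:107399630-107399929 on the + strand and that of Kcna5 at chr6:126535506-126535805 on the - strand.
Cacna2d2: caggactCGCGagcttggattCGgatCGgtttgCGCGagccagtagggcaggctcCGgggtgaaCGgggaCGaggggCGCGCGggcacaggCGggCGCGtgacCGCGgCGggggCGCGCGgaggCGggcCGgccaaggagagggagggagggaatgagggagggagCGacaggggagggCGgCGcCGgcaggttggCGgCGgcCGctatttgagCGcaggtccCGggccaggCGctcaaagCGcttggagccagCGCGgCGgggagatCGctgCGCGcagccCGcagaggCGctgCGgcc
Kcna5: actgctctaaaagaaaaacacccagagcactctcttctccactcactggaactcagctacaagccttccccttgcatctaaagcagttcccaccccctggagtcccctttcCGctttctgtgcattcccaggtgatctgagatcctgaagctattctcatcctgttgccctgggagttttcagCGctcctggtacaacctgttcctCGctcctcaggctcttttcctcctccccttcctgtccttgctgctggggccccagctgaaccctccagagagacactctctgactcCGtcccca

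The 2 sequences differ in composition. Cacna2d2 has 43 CG steps and 75.7% G and C in its 300 bases, and Kcna5 has 4 CG steps and 55.0%. Across the 126 promoters found for 91 of the channel genes the medians were 9.5 CG steps and 58.8% G and C, and over all 32544 promoters of the table they were 7 and 53.0%. The letters TAATCC, the core that Pitx-type homeodomains are known to bind, were searched on both strands, and neither promoter shown held them. They occurred in 5 of the 126 channel gene promoters (3.97%), those of Cacna1c, Cacna1s, Kcng4, Kcnj9 and Scn7a, against 7.06% of all promoters of this length. None of these 5 genes passed the test.

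Among calcium channel pore subunits, Cacna1g fell. It encodes a T-type channel, which opens at low voltage. Its normalised log2 level was 6.77, 6.85 and 6.79 in the null RNA, read beside pools 1, 2 and 3, and 6.98, 7.17 and 7.18 in the heterozygous pools. All 6 array values of the null RNA, at most 6.89, lay below the lowest heterozygous value of 6.91, so the array values did not overlap. Here and for the genes below, the 6 null values are repeat reads of 1 pool. The heterozygous values are 2 reads of each of 3 pools. How many of all genes have array values without overlap was not counted. The pool ratios were -0.20, -0.32 and -0.39, with a mean of -0.30 ± 0.095 (SD, n = 3 pools), a 1.23-fold higher level in heterozygous neurons (limma adjusted p = 0.0492). The ratio was -0.52 with plain background subtraction and -0.15 as the mean over its 2 probes, the second of which was not above background. The adjusted p ran from 0.00978 to 0.321 over the 14 other settings, and 6 of them made the call.

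The other 9 pore subunit genes of calcium channels did not pass, and 8 of the 10 were above background. Cacna1d and Cacna1c, the L-type channels known for pacemaking, read 0.01 ± 0.057 and -0.02 ± 0.066. Cacna1a and Cacna1b, which encode the P/Q-type and N-type channels of transmitter release, read 0.01 ± 0.021 and -0.05 ± 0.012. The other T-type genes Cacna1h and Cacna1i read -0.11 ± 0.22 and -0.07 ± 0.046. The pools disagreed on Cacna1h, with 0.08, -0.35 and -0.05. Of the 8 genes above background 6 had a ratio below 0 (75%, against 53.7% of all genes above background). The median of the 8 was -0.053, beside -0.0074 for all genes above background.

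Among the 15 auxiliary genes of calcium channels, Cacna2d2 rose, and none fell. It encodes an alpha2delta subunit, which brings the channel to the membrane. Its log2 level was 8.06, 7.98 and 7.90 in the null RNA and 7.76, 7.68 and 7.47 in the heterozygous pools, without overlap on any of the 6 arrays. The pool ratios were 0.30, 0.30 and 0.43, with a mean of 0.34 ± 0.077, a 1.27-fold higher level in the null pool (adjusted p = 0.0357). This value is that of the brightest of 4 probes. The 2 further probes of the gene that were above background read 0.01 ± 0.011 and -0.07 ± 0.11, and the mean over its probes was 0.07 (adjusted p = 0.244). Over all 14 other settings the adjusted p ran from 0.00725 to 0.304, and 5 of them made the call.

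The beta subunit gene Cacnb4 had the lowest ratio of the calcium channel genes but did not pass. It read -0.22, -0.53 and -0.48 in the 3 pools, with a mean of -0.41 ± 0.16 (adjusted p = 0.0655). Its null levels of 7.05, 6.96 and 7.14 lay below the heterozygous levels of 7.27, 7.48 and 7.62. These are values of the brightest of 6 probes. No further probe of Cacnb4 was well above background on any array, and the mean over its probes was -0.09. Cacng2, which encodes stargazin, a subunit that also traffics AMPA-type glutamate receptors, read -0.27 ± 0.14 (adjusted p = 0.113), while 2 further probes of it above background read 0.10 ± 0.054 and -0.07 ± 0.058. The brightest probes of Cacna2d3 and Cacna2d4 were well above background on 0 arrays in the null RNA, and on 4 arrays for Cacna2d3 and 3 for Cacna2d4 in the heterozygous RNA. Their fitted ratios were -0.11 ± 0.069 and -0.08 ± 0.080, and neither passed (limma adjusted p = 0.200 and 0.347). Null signals under the lowest signal well above background were also raised to it. The levels were then 1.08-fold and 1.06-fold higher in heterozygous neurons, for Cacna2d3 the same as fitted, and the spread of the pools is not in these values. A further probe of Cacna2d3 was well above background on 1 array in the null RNA and 0 in the heterozygous RNA. The remaining members ran from -0.06 to 0.12.

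Voltage-gated potassium channel genes held the second rise. Kcna5 encodes a delayed rectifier of the Shaker group. Its log2 level was 6.78, 6.84 and 6.80 in the null RNA and 6.56, 6.64 and 6.48 in the heterozygous pools, with no overlap over the 6 arrays. The pool ratios were 0.22, 0.20 and 0.32, with a mean of 0.24 ± 0.064 (adjusted p = 0.0458), a 1.19-fold higher level in the null pool. The gene has 1 probe. Plain background subtraction gave 0.53, and the adjusted p ran from 0.00781 to 0.308 over the 14 other settings, of which 5 made the call.

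Of the 24 pore subunit genes of voltage-gated potassium channels, 1 rose, 0 fell and 23 did not pass, with a median of -0.0055. The lowest was Kcna4, which encodes an A-type channel, the kind that inactivates quickly and delays firing. It read -0.67, -0.16 and -0.42 in the 3 pools, with the pools far apart, and had a mean of -0.42 ± 0.25 (adjusted p = 0.132). Kcnd2, another A-type pore subunit gene, read -0.20, -0.52 and -0.32, with a mean of -0.34 ± 0.16 (adjusted p = 0.0863). Its null levels of 8.64, 8.63 and 8.67 lay below heterozygous levels of 8.84, 9.15 and 8.99. These are values of the brightest of 9 probes, and the 1 further probe above background read -0.07 ± 0.030. Kcnd3, the A-type gene named for adult dopaminergic neurons, read 0.13 ± 0.093 (adjusted p = 0.214), and Kcna6, a Shaker-type gene, 0.13 ± 0.039 (adjusted p = 0.0937). Kcna2 read 0.02 ± 0.022. Kcnc1, chosen here after its values were seen, encodes a fast delayed rectifier and read -0.29 ± 0.16 (adjusted p = 0.114). Kcnh2, chosen in the same way, encodes an ERG channel and read 0.19 ± 0.069 (adjusted p = 0.0741).

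**Figure D2:**
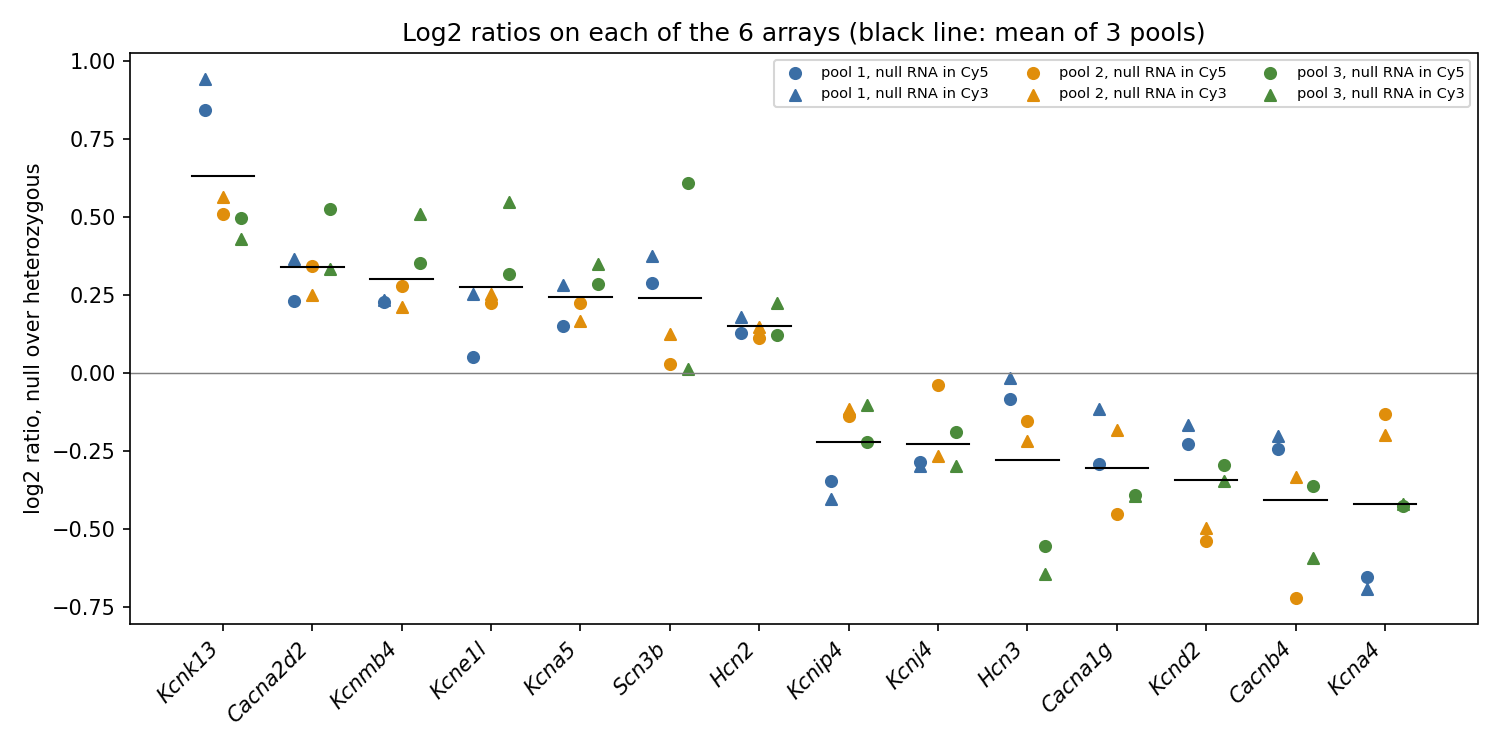
Log2 ratios (null over heterozygous) of 14 channel genes on each of the 6 arrays, coloured by heterozygous pool and shaped by the dye of the null RNA, with black lines at the mean of the 3 pools. For Kcna4, Hcn3 and Kcnk13 the 2 arrays of a pool lie close together while the pools differ, and Scn3b of pool 3 reads 0.61 on one array and 0.01 on the other.

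Proteins that assemble with A-type channels were read beside them. Kcnip4 encodes a calcium-binding subunit of Kcnd channels and read -0.22 ± 0.13 (adjusted p = 0.147), with -0.37, -0.13 and -0.16 in the pools. Dpp10, a transmembrane partner of the same channels that is no channel gene itself, read -0.33 ± 0.27 (adjusted p = 0.216), and Dpp6, its relative, -0.02 ± 0.027. The brightest probe of Kcnip3 met the background criterion on no array and its further probe on 1 array in each RNA, so no ratio is read for it here. Of these genes and Kcnd2 none passed.

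The 15 auxiliary genes of potassium channels had no call, and 11 were above background. Kcnmb4, the neuronal beta subunit of large-conductance calcium-activated channels, read 0.23, 0.25 and 0.43, with a mean of 0.30 ± 0.11 (adjusted p = 0.0608). Its null levels of 9.01, 8.93 and 8.97 lay above heterozygous levels of 8.78, 8.68 and 8.54. The pore that it binds, encoded by Kcnma1, was not well above background on any array. Kcne1l, a single-span subunit gene of the Kcne family, read 0.15, 0.24 and 0.43, with a mean of 0.28 ± 0.14 (adjusted p = 0.107). The null levels of both genes lay above the heterozygous ones on all 6 arrays. Of the 9 silent modifier genes, whose products only work together with other pore subunits, 3 were above background: Kcns2 read 0.06 ± 0.015, Kcng4 0.05 ± 0.021 and Kcns1 -0.03 ± 0.043.

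Potassium channels that set the resting potential had no call either. Kcnk13, a 2-pore-domain leak channel gene, had the highest ratio of all 119 genes. Its log2 level was 10.76, 10.64 and 10.65 in the null RNA and 9.87, 10.10 and 10.19 in the heterozygous pools, without overlap. The pool ratios were 0.89, 0.54 and 0.46, with a mean of 0.63 ± 0.23, or 1.55-fold, and the adjusted p of 0.0532 lay just over the threshold. The gene has 1 probe. Kcnk13 is also known from microglia: the 6 microglial markers measured were all above background, 0 passed the test, and their summed normalised signal ran from 460 to 512 in the null RNA and from 451 to 515 in the heterozygous RNA. In this and the later marker sums the offset of 50 is part of each gene's signal. It draws the sums of dim markers together, so close sums do not show equal cell content. Kcnk3 and Kcnk9, acid-sensitive leak channel genes, read -0.06 ± 0.0099 and 0.11 ± 0.030 (adjusted p = 0.278 and 0.0990), and a further probe of Kcnk3 read 0.16 ± 0.063. Of the 11 members 5 were above background.

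Inward rectifiers pass current more readily into the cell than out of it. Of 13 measured genes 7 were above background, and 6 of these had a ratio below 0 (85.7%, against 53.7% of all genes above background). Kcnj4, which encodes a strong rectifier, read -0.29, -0.15 and -0.24, with a mean of -0.23 ± 0.071 (adjusted p = 0.0566), and a further probe above background read 0.08 ± 0.062. Kcnj3, a subunit of G protein-gated channels, read -0.45, -0.02 and 0.06, so that its mean of -0.13 ± 0.28 (adjusted p = 0.626) rested on pool 1. It was 0.02 without replicate 1. Kcnj9 encodes another subunit of such channels. Its brightest probe met the background criterion on 0 null and 3 heterozygous arrays and read -0.09 ± 0.061 (adjusted p = 0.231). With null signals raised to the lowest signal well above background, that probe was 1.05-fold higher in heterozygous neurons. A further probe met the criterion on 1 array in each RNA. Kcnj11, the pore of ATP-sensitive channels, was not well above background on any array. Kcnj8, the other such pore, chosen after its values were seen and known from pericytes, read 0.12 ± 0.037 (adjusted p = 0.0921), and a further probe above background read -0.03 ± 0.023. Of the 7 pericyte and mesenchyme markers 0 passed, with summed signals of 552 to 572 in the null RNA and 560 to 576 in the heterozygous RNA, and Lum was not well above background on any array.

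Channels opened by internal calcium or sodium were mostly dim, with 4 of 8 genes above background. Kcnn2, a small-conductance channel gene, read -0.34, -0.04 and -0.16, with a mean of -0.18 ± 0.15 (adjusted p = 0.245). Kcnn3, the small-conductance gene of adult dopaminergic neurons, was well above background on 1 array in the null RNA and 2 in the heterozygous RNA and read -0.05 ± 0.057. Kcnt1, a sodium-activated channel gene, read -0.10 ± 0.019 (adjusted p = 0.109), the same sign in all 3 pools. Of its 3 further probes above background, 2 read above 0, at 0.07 ± 0.073 and 0.07 ± 0.0097.

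Sodium channel genes had 0 calls among 11, with 1 at an unadjusted p under 0.05 in limma, Scn3b. It encodes a beta subunit, which ties the channel to the membrane and modulates its gating. Its null levels of 10.85, 10.87 and 11.08 were above the heterozygous levels of 10.51, 10.79 and 10.76, while single arrays overlapped. The pool ratios were 0.33, 0.08 and 0.31, with a mean of 0.24 ± 0.14 (adjusted p = 0.136), but a further probe above background read -0.06 ± 0.071. Scn2b, the other beta subunit gene measured, was not well above background on any array in the null RNA and on 1 in the heterozygous RNA. Among 9 pore subunit genes, 4 were above background, each with a ratio below 0, as had 53.7% of all genes above background. Scn2a and Scn8a, the main pores of central neurons, read -0.10 ± 0.10 and -0.05 ± 0.052. Scn4a and Scn10a, known from skeletal muscle and sensory neurons, read -0.03 ± 0.023 and -0.02 ± 0.081. Of 6 skeletal muscle markers 1 passed, Myod1, which fell by 0.22, and their summed signals ran from 557 to 630 in the null RNA and from 588 to 646 in the heterozygous RNA.

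The 3 HCN channel genes measured were all above background, and their ratios did not share a sign. Hcn2 read 0.16, 0.13 and 0.17, a narrow spread around a mean of 0.15 ± 0.022, and its adjusted p of 0.0525 lay just over the threshold. Hcn2 is dim, so the offset shrinks both values, and plain background subtraction gave 0.51 (limma adjusted p = 0.162). Its null levels of 6.35, 6.44 and 6.31 lay above the heterozygous levels of 6.19, 6.31 and 6.14 by as little as the difference between 6.311 and 6.306, and the single arrays overlapped. Hcn3 read -0.05, -0.18 and -0.60, with a mean of -0.28 ± 0.29 (adjusted p = 0.318), so pool 3 stood apart from the other pools. Without replicate 3 its mean was -0.12. Hcn4, known for pacemaking in heart and brain, read -0.07, -0.17 and 0.12, with a mean of -0.04 ± 0.15 (adjusted p = 0.811).

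**Figure D3:**
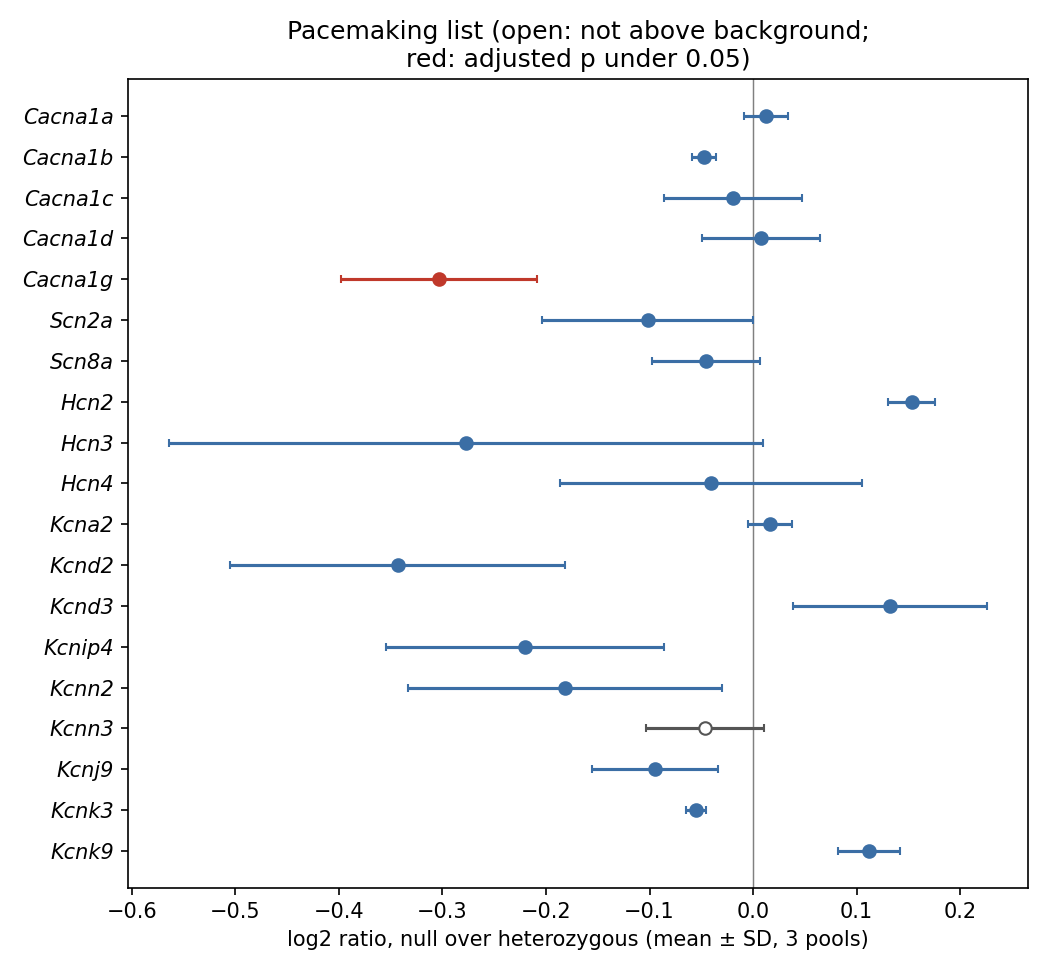
Log2 ratios (null over heterozygous, mean ± SD of 3 pools) of the pacemaking genes with a signal well above background on some array. Open points are genes that reached this on fewer than 3 arrays in each RNA, and the red point is Cacna1g, the 1 call. Kcnj9 is drawn at the fitted ratio of its brightest probe, which had no null signal well above background. Cacna1d, Cacna1c and Cacna1a sit at 0 within their SD, and the SD bars of Hcn3, Kcnd2 and Kcnn2 are the widest on the negative side.

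For the channels known from adult dopaminergic pacemaking as a list, 22 of 26 were measured and 18 were above background. In this list 0 rose, 1 fell (Cacna1g) and 21 did not pass, so 4.55% were called, against 4.96% of all genes, and the median was -0.043 (SD of the 3 pools' medians 0.015), beside -0.0027 for all genes. The other 4 listed genes were not analysed here. Of the dopaminergic markers read beside them, 1 of 12 fell, the dopamine transporter gene Slc6a3 at -0.42 ± 0.018, and 0 rose. The Slc6a3 probe met the background criterion on 2 null and 6 heterozygous arrays. At an unadjusted p under 0.05, limma gave 5 of the 12 lower and 0 higher, or 41.7% against 20.5% of all genes. Of all 18295 genes it gave 1768 lower and 1985 higher. Among the 9 markers above background, 7 had a ratio below 0 (77.8%, against 53.7% of all genes above background) and 2 above. Their median was -0.084. Summed signals of the dopaminergic list ran from 1372 to 1665 (null RNA) and from 1452 to 1969 (heterozygous RNA). Among 7 general neuronal markers measured, Elavl3 fell by 0.50 and 0 rose, with summed signals of 2137 to 2363 in the null RNA and 2414 to 2696 in the heterozygous RNA. The 7 radial glia markers had 0 calls, with summed signals of 5476 to 5934 in the null RNA and 4271 to 5512 in the heterozygous RNA. At an unadjusted p under 0.05, limma gave 3 of these 7 higher and 0 lower, and 5 of them read above 0. Of the 7 neuronal markers it gave 2 lower and 0 higher, and 6 read below 0. It gave 2 of 4 erythroid markers higher and 1 of 6 endothelial markers lower. Of 4 erythroid markers measured 1 passed, Hbb-y, which rose by 0.37. Their summed signals were 601 to 686 in the null RNA and 517 to 599 in the heterozygous RNA. The 6 endothelial markers had 0 calls, with summed signals of 763 to 831 in the null RNA and 771 to 1134 in the heterozygous RNA. The part of cell composition in the channel ratios was not tested.

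The potassium channel median was -0.0027 (SD of the 3 pools' medians 0.0076), the calcium channel median -0.019 (SD 0.018), the sodium channel median 0.0002 (SD 0.0055) and the HCN median -0.041 (SD 0.14). Each lay within 0.05 of the median of all genes, and the HCN median was 0.06 where Cy5 labelled the null RNA and -0.14 where Cy3 did. Calls were 1 of 80 potassium, 2 of 25 calcium, 0 of 11 sodium and 0 of 3 HCN channel genes, where limma gave 1 sodium and 1 HCN channel gene at an unadjusted p under 0.05. Among genes above background, 32 of 49 pore subunits (65.3%) had a ratio below 0, and 10 of 24 auxiliary subunits (41.7%), against 53.7% of all genes above background. Their medians were -0.032 and 0.0098. These are descriptions of unequal lists, and the difference between classes was not tested.

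Ratio and gene length were weakly related among the channels and among other genes. Across the 76 channel genes above background, Spearman's rho between log2 ratio and genomic span was -0.29, and it was -0.26 over 12188 other genes above background. The genes share the 6 arrays and are not independent. The median span was 52.2 kb for the pore subunit genes above background and 74.6 kb for the auxiliary ones. The part of the span trend in single ratios was not tested.

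**Figure D4:**
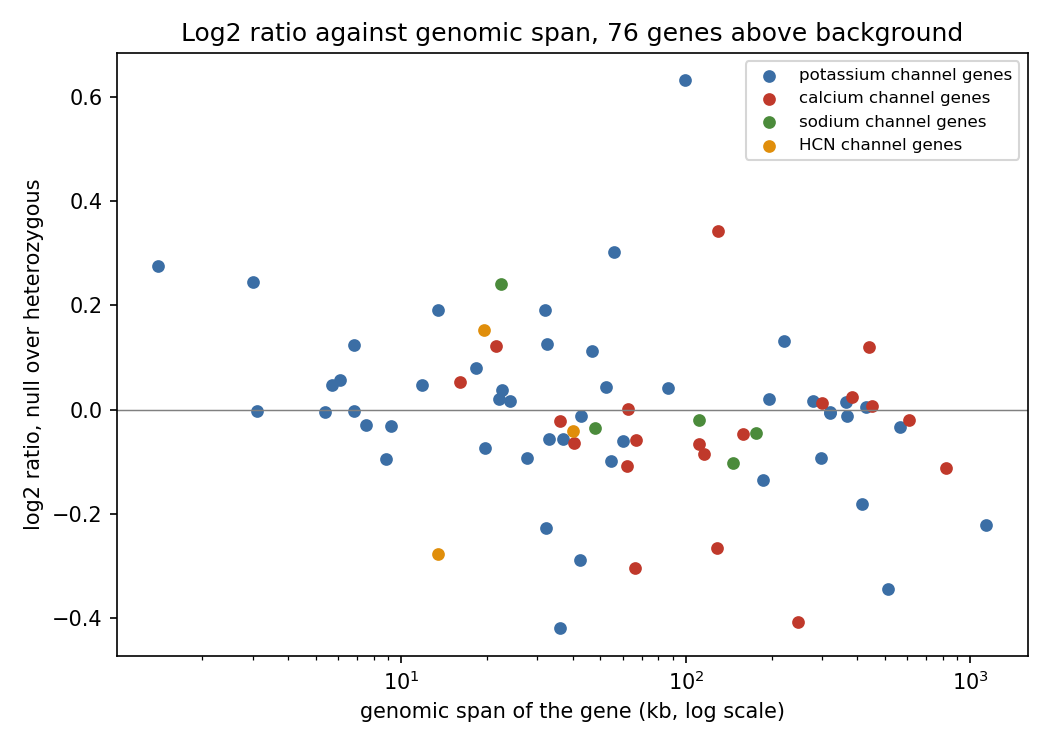
Log2 ratio (null over heterozygous, mean of 3 pools) against the genomic span of the gene in kb on a log axis, for the 76 channel genes above background, coloured by family. The points slope weakly downward, with a Spearman's rho of -0.29, and Kcnk13 and Cacna2d2 lie above the trend at spans near 100 kb.

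Genes whose products bind or regulate these channels were examined beside them. Of 28 measured partners, 1 rose, 1 fell and 26 did not pass, so 7.14% were called, against 4.96% of all genes. The median was -0.017, beside -0.0027 for all genes. Pex5l, which encodes TRIP8b, a protein that sets the membrane level and gating of HCN channels, rose, with pool ratios of 0.43, 0.31 and 0.26 and a mean of 0.33 ± 0.086 (adjusted p = 0.0403). Unc79, a subunit of the sodium leak channel complex, fell, with -0.19, -0.21 and -0.29 and a mean of -0.23 ± 0.052 (adjusted p = 0.0433). Both calls were lost in the settings that called 0 of all 18295 genes, such as each pool left out. The partner genes were not followed through the remaining settings. Fgf13, which binds the tail of sodium channels, read 0.25 ± 0.085 (adjusted p = 0.0596), while Ank3, the anchor of sodium channels at the axon initial segment, read -0.10 ± 0.31, with pools at -0.15, -0.38 and 0.24.

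Probes of 1 gene often disagreed. Of the 119 genes, 57 had several probes, and 23 further probes were above background in genes that were themselves above background. Of these, 10 matched their gene's brightest probe in sign. Each value above is that of the brightest probe unless another is named.

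The 3 calls lie close to the threshold and near the smallest adjusted p of the whole array, 0.0260. All 3 were lost when any 1 pool was left out, where limma called 0 of 18295 genes (2956 to 3259 at an unadjusted p under 0.05).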

How the data were processed

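Per the file headers, the deposited scanner tables give each spot's intensity and local background for Cy5 and Cy3, not normalized. The authors also deposited normalized intensity values per dye and a series table of log2 ratios, equal to log2 of normalized Cy5 over Cy3. The method of that normalization is not given in the sources. Of 45220 spots, 4046 controls were left out of the tests. Probes were named from the platform annotation, with symbols updated through RefSeq (GRCm38.p6), which renamed 1 channel gene, Scn2a. Background was corrected with normexp (offset 50) and arrays with loess in limma 3.58.1 (R 4.3.3). Dye-swapped arrays were averaged, so n = 3 pools, and the brightest probe represented a gene. Levels per channel were scaled with Aquantile. The ratio was tested against 0 over all 18295 genes with lmFit and eBayes. On simulated data with 200 changed genes, 13 of 200 calls were false, and 88% of the genes changed by 0.5 were called. The simulation drew the 3 pools independently, without a shared null pool, so it cannot check that part of the design. The p-values measure the spread of the 3 heterozygous pools and leave out that of null pools, since there was 1. The number of arrays limits the precision.

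Channel genes, classes, the pacemaking, partner and marker lists were chosen with earlier results of these data known. Named were all calls, in each class the 2 genes above background with the largest ratios and the 2 brightest, and the pacemaking list, 43 genes in all. Alternatives changed the background correction and normalization, used the authors' values, filtered dim probes, averaged probes, kept 1 dye orientation, changed the variance model, took pool as a block or left out each pool. No file gave a slide or scan date, so that block was not run.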

Additional observations from a re-analysis of the deposited data

Results flagged for a closer look

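Of the 43 named genes, 1 had an array that stood apart from its other arrays by Dixon's ratio, where chance flags about 5% of such genes. For Kcnip3, pool 1 read -0.0647 where Cy5 labelled the null RNA, and the remaining arrays lay between -0.0045 and 0.0305. Its probe was well above background on 0 of 6 arrays in each RNA.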

How the results depend on the processing

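The count of 3 channel genes past the threshold was 0 with plain background subtraction, median centring, an unmoderated test and a trended robust variance. It was also 0 with each pool left out. In each of these settings 0 of all 18295 genes were called, so the loss was not particular to channel genes. By the test of each setting, 19 to 25 channel genes and 2573 to 3305 of all genes had an unadjusted p under 0.05. The cause was not tested, except that leaving out a pool leaves 2. The count was 6 with the dim-probe filter, which tests fewer genes, and adds Cacnb4, Kcnk13 and Kcnmb4. That setting called 8.71% of its 12291 genes, against 4.96% of all genes in the main setting. With pool as a random replicate block over the 6 arrays the count was 18, where 12.1% of all genes were called. That fit takes paired arrays as separate values linked by pool and includes a dye term. The count was 3 or 4 in the other 5 settings, but the genes changed: 2 of the 3 calls were shared with the mean over probes, 1 with the null RNA in Cy5 (Cacna1g) and 1 in Cy3 (Cacna2d2). Kcnk13 passed in 6 of the 14 settings.

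The potassium channel median was -0.011 with plain subtraction, -0.015 with the null RNA in Cy5 and 0.011 in Cy3. With each pool left out it ran from -0.010 to 0.0022. The calcium channel median was -0.048 with plain subtraction, -0.0042 when probes were averaged, -0.035 when dim probes were filtered, -0.037 both without background correction and by the authors' ratios, and -0.0049 both with median centring and with the null RNA in Cy3, and ran from -0.034 to 0.0076 with each pool left out. The sodium channel median was -0.017 with plain subtraction, -0.0059 with the authors' values and with the mean over probes, -0.034 with the dim-probe filter, -0.010 with the null RNA in Cy5 and -0.0075 in Cy3. It ran from -0.0027 to 0.0048 with each pool left out. The HCN median was 0.057 with the null RNA in Cy5 and -0.14 in Cy3, and ran from -0.12 to 0.023 with each pool left out. The cause was not tested.

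No called gene changed sign in any of the 14 settings. Of the 43 named genes, 31 kept their sign throughout. The other 12, none called, changed it in 24 comparisons.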
